A study of Mus musculus with 6 samples.

Results

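The genes described here are 30 enzymes and transporters of glycolysis, gluconeogenesis and glycogen metabolism, chosen by gene symbol from a table of read counts for 30029 genes in mouse liver. All 30 symbols were found, in 31 rows, because aldolase A had an additional row for an upstream transcript unit with at most 6 counts in any library. After the filter on low counts 30 of the 31 rows were tested, 1 for each symbol, and the additional aldolase A row was not. Polyadenylated RNA was sequenced from 3 livers labelled ATP7B knockout and 3 labelled wild type, all from mice fed a high-fat diet for 24 weeks. ATP7B is the copper-exporting ATPase of hepatocytes whose loss causes Wilson disease. The question stated for the series was how liver gene expression differs between these genotypes on this diet. The knockout genotype was given as Atp7b-/-, while the sources used here give neither strain nor age nor the part of the gene altered. The labels do not tie each library to an animal of its own, and the p-values therefore cover library-to-library spread that could be technical.

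Glycolysis splits glucose to pyruvate, and gluconeogenesis runs most of the same reversible steps backwards, with its own enzymes at the irreversible ones. Vertebrates carry several genes for many of these enzymes. Hepatocytes use liver forms such as the liver phosphofructokinase and the liver pyruvate kinase, whose activities follow glucose, insulin and glucagon, while most other cells use hexokinases 1 to 3, muscle or platelet phosphofructokinase, aldolase A or C and the muscle pyruvate kinase gene. Lactate dehydrogenase A is the main liver form and lactate dehydrogenase B that of heart and red cells. A whole liver sample holds RNA of hepatocytes together with that of macrophages, stellate cells, endothelium and bile ducts.

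Libraries held 68117601 to 70965999 counts when labelled knockout and 57886524 to 67280139 when labelled wild type. Levels are CPM, counts brought to a common library size with TMM factors, given as mean ± SD of 3 libraries, and log2 fold changes are labelled knockout over labelled wild type ± SE. A gene was called when its adjusted p in edgeR's quasi-likelihood test was under 0.05. The targeted gene did not check the labels, since Atp7b had 25.9, 27.1 and 23.6 CPM in the livers labelled knockout, against 17.5, 22.4 and 33.9 CPM in those labelled wild type (log2 fold change 0.05 ± 0.23, adjusted p = 0.939). Every direction below compares libraries by their labels. The first principal component of the libraries (54.6% of the variance) separated the groups, with labelled knockout replicate 3 and replicate 2 at the ends of their group's range.

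Both members that were called are isozymes typical of cells other than hepatocytes. Pkm, the muscle-type pyruvate kinase gene, was 2.69-fold higher and Hk2, the hexokinase of muscle, fat and dividing cells, 3.34-fold higher in the livers labelled knockout. They made up 2 of 30 members, both higher (6.67%), where 1.44% of the 17606 tested genes were called and 0.932% were called higher. No member was called lower, where 0.506% of tested genes were. The median log2 fold change of the members was 0.12, beside -0.02 for all tested genes. Leaving out labelled knockout replicate 3 brought the members' median to 0.02, and leaving out labelled wild-type replicate 1 brought it to 8e-04. The log2 fold changes ran from -0.54 for Khk to 1.74 for Hk2, with 20 members above 0 and 10 below. In 10 members every library labelled knockout lay above every library labelled wild type, and in 1, Ldha, below, where 13.7% and 12% of tested genes did so and 25.7% did either. The 10 included the liver forms Pfkl and Gys2 and the widely expressed enolase Eno1. At an unadjusted p under 0.05 there were 9 members, where 19.7% of tested genes passed.

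**Figure D1:**
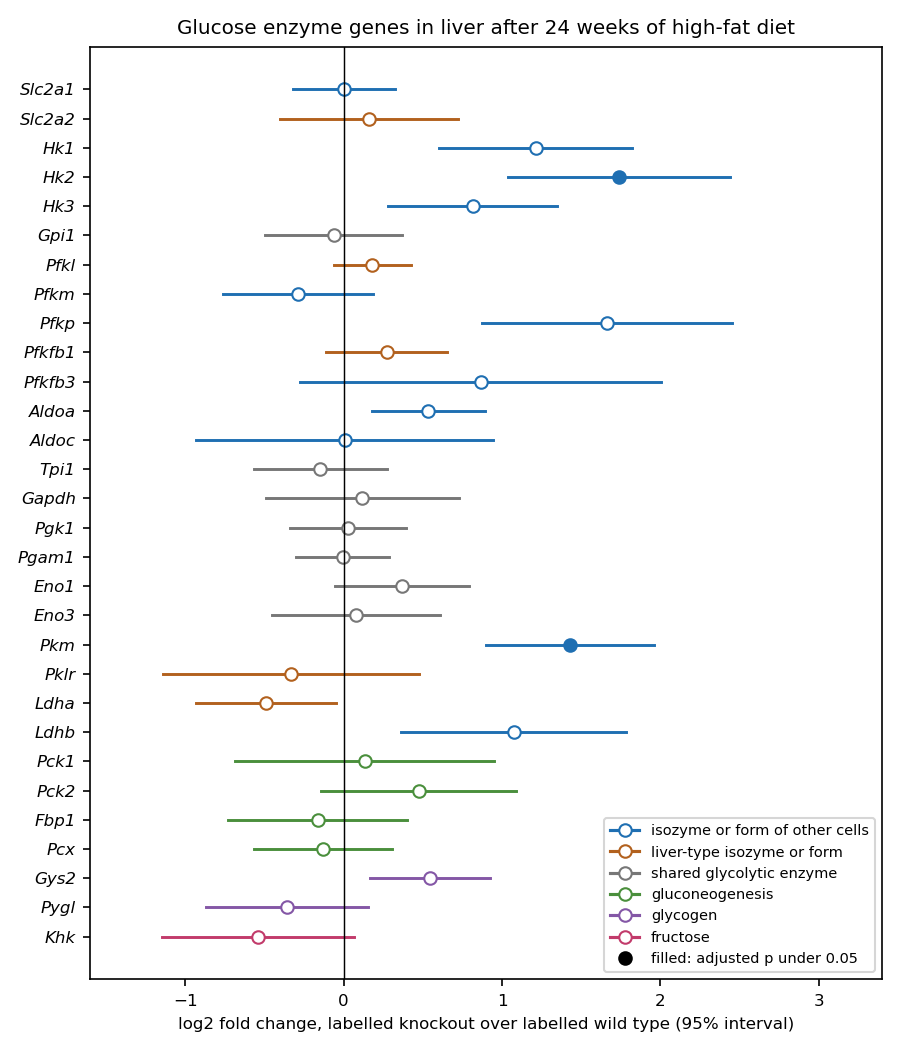
Log2 fold change of each of the 30 member genes, labelled knockout over labelled wild type, with 95% intervals from edgeR's quasi-likelihood fit, ordered by step and coloured by kind. Only Hk2 (1.74) and Pkm (1.43) are filled as called, and the isozymes of other cells Hk1, Hk3, Pfkp, Aldoa and Ldhb also have intervals above 0.

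Hexokinases phosphorylate glucose on entry to the cell. Hk2 (ENSMUSG00000000628; GRCm39 chromosome 6, 82702006 to 82751435) had 6.39, 3.46 and 6.48 CPM in the livers labelled knockout, against 1.56, 1.80 and 1.52 CPM in those labelled wild type. The groups did not overlap, and replicate 2 was the lowest labelled knockout library. Its mean was 5.44 ± 1.72 CPM in livers labelled knockout and 1.63 ± 0.152 CPM in livers labelled wild type (log2 fold change 1.74 ± 0.31, adjusted p = 0.0464). Hk1, the hexokinase of brain and red cells, had 7.86, 4.96 and 6.20 CPM in livers labelled knockout, against 3.41, 2.38 and 2.41 CPM in livers labelled wild type. These groups did not overlap either, but the difference was not called (log2 fold change 1.21 ± 0.27, adjusted p = 0.06). Hk3, the hexokinase of leukocytes, had 13.3, 13.1 and 11.4 CPM in livers labelled knockout, against 9.52, 5.07 and 6.93 CPM in livers labelled wild type (0.81 ± 0.23 on the log2 scale, adjusted p = 0.107).

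Phosphofructokinase commits fructose 6-phosphate to glycolysis. Pfkp, the platelet-type subunit, had 7.93, 4.88 and 10.8 CPM in livers labelled knockout, against 3.18, 1.78 and 2.48 CPM in livers labelled wild type. Every labelled knockout library was above every labelled wild-type library, and the difference stood just outside the threshold (log2 fold change 1.66 ± 0.34, adjusted p = 0.0545). Pfkl, the liver subunit, had 45.6, 45.9 and 41.1 CPM in livers labelled knockout, against 38.1, 39.6 and 39.2 CPM in livers labelled wild type (0.18 ± 0.11, adjusted p = 0.402). Pfkm, the muscle subunit, had 12.1, 19.3 and 14.2 CPM in livers labelled knockout and 15.4, 18.1 and 22.1 CPM in livers labelled wild type. Its groups overlapped, and its log2 fold change of -0.29 ± 0.21 (adjusted p = 0.499), 0.02 with total-count scaling, made it the isozyme of other cells with a value below 0. Per kilobase of the longest coding transcript Pfkp made up 10.1% ± 4.10 of phosphofructokinase reads in livers labelled knockout and 3.45% ± 1.13 in livers labelled wild type (5.11% and 1.62% with the length of all exons merged). Pfkfb1 and Pfkfb3 make and remove fructose 2,6-bisphosphate, the activator of phosphofructokinase. Pfkfb3, the inducible form, had 35.6, 15.1 and 17.9 CPM in livers labelled knockout and 10.8, 6.85 and 20.01 CPM in livers labelled wild type, with overlapping groups (0.87 ± 0.48, adjusted p = 0.385). Pfkfb1, the liver form, had 36.1, 46.0 and 42.7 CPM in livers labelled knockout and 32.8, 41.95 and 28.7 CPM in livers labelled wild type (0.27 ± 0.17, adjusted p = 0.422).

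Aldolase cleaves fructose 1,6-bisphosphate. Aldoa, the form of muscle and most tissues, had 134, 125 and 171 CPM in livers labelled knockout, against 105, 98.7 and 92.7 CPM in livers labelled wild type. These groups did not overlap and the difference was not called (0.53 ± 0.16, adjusted p = 0.111). Aldoc, the brain form, had 4.49, 4.28 and 7.68 CPM in livers labelled knockout and 2.60, 6.27 and 7.52 CPM in livers labelled wild type, with labelled wild-type replicate 1 the lowest of all (0.01 ± 0.41, adjusted p = 0.997).

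**Figure D2:**
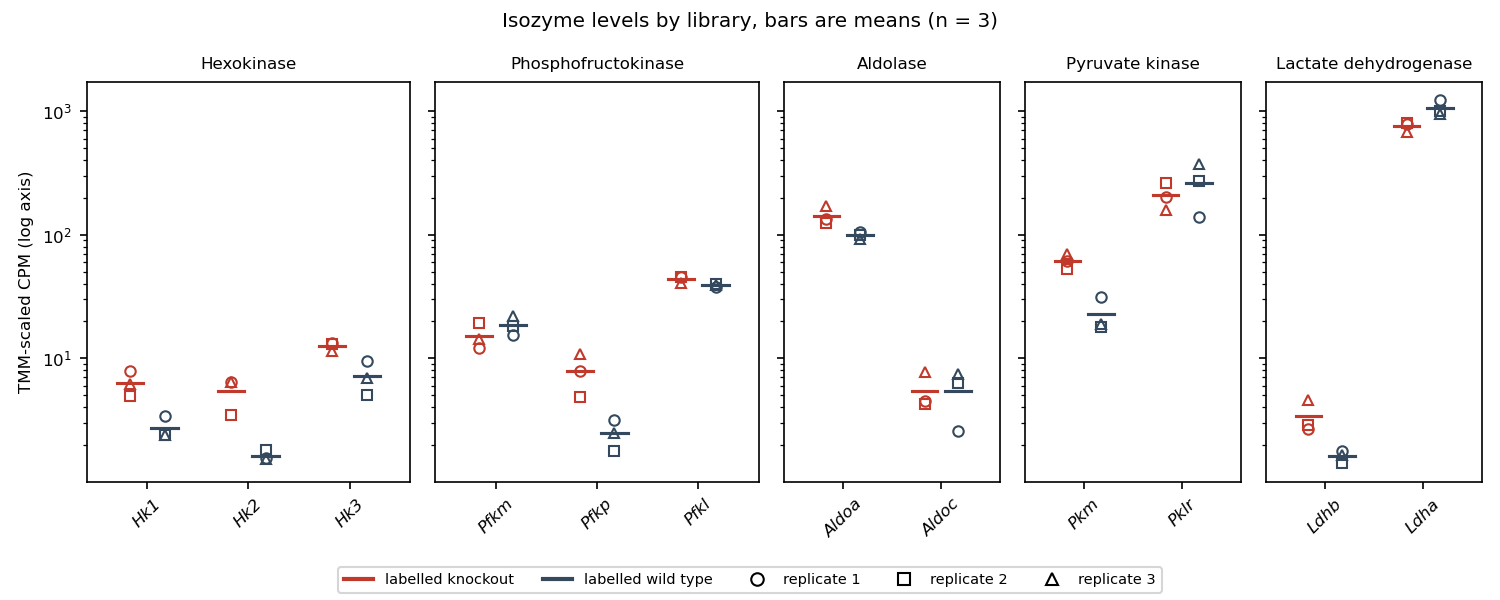
TMM-scaled CPM on a log axis of the member isozymes of 5 enzyme steps in each library, labelled knockout in red to the left of labelled wild type in dark blue, with symbols for replicate numbers and bars for means (n = 3). For Hk1, Hk2, Hk3, Pfkp, Aldoa, Pkm and Ldhb the red points all lie above the dark blue ones, while those of Pklr, Pfkm and Aldoc overlap.

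Pyruvate kinase makes pyruvate in the last step of glycolysis. Pkm (ENSMUSG00000032294; GRCm39 chromosome 9, 59563651 to 59586658) had 61.5, 52.8 and 70.1 CPM in the livers labelled knockout, against 31.6, 17.9 and 19.0 CPM in those labelled wild type. The groups did not overlap, and labelled wild-type replicate 1 was the highest of its group. The mean was 61.5 ± 8.64 CPM in livers labelled knockout and 22.8 ± 7.58 CPM in livers labelled wild type (log2 fold change 1.43 ± 0.23, adjusted p = 0.0453). Pkm makes the M1 and M2 enzymes by alternative exons, and counts per gene do not separate them. Pklr, the liver and red cell gene, had 201, 264 and 160.0 CPM in livers labelled knockout and 139.6, 275 and 372 CPM in livers labelled wild type. Its groups overlapped, with the lowest and the highest library both labelled wild type (-0.33 ± 0.35, adjusted p = 0.671; 0.0061 without labelled wild-type replicate 3). Per kilobase Pkm made up 26.8%, 19.3% and 34.3% of pyruvate kinase reads in livers labelled knockout, against 21.3%, 7.22% and 5.76% in livers labelled wild type, where replicate 1 lay within the range of the livers labelled knockout. The mean share was 26.8% ± 7.52 in livers labelled knockout and 11.4% ± 8.55 in livers labelled wild type (16.7% and 6.67% with the length of all exons merged).

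Promoter windows of these genes are shown because the liver pyruvate kinase is the textbook target of the glucose-responsive factor ChREBP, while Hk2 and Pkm are known targets of hypoxia-inducible factor. Windows run from 250 bases before to 50 after an annotated start, from RefSeq on build GRCm38.p6, and were found for 29 of the 30 members, without Gys2. Capitals mark a carbohydrate response element, CACGNG and CNCGTG with 5 bases of any kind between them, in Pklr (chr3:89136373-89136672, plus strand, the downstream of 2 starts), and ACGTG or its complement CACGT, the core of a hypoxia response element, in Pkm (chr9:59656977-59657276, plus strand, the downstream of 2 starts) and Hk2 (chr6:82774405-82774704, minus strand).
Pklr: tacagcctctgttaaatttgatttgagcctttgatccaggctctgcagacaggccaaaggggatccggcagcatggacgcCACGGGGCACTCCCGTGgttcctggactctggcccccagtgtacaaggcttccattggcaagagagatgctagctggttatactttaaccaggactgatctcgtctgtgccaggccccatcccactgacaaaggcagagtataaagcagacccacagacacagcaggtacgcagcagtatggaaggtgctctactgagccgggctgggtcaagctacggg
Pkm: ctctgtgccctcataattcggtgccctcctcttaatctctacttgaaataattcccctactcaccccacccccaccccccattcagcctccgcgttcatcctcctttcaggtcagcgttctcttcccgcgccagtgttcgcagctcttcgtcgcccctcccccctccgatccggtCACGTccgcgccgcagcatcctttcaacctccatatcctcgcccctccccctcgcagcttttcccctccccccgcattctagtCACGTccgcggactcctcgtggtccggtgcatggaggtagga
Hk2: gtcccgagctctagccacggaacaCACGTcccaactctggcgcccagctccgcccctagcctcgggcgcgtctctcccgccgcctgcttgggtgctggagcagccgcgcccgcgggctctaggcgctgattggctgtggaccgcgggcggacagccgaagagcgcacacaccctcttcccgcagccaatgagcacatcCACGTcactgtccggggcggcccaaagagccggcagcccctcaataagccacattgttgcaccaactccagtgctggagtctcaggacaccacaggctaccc
The match in Pklr, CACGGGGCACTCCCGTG, begins 170 bases upstream of that start, and its pattern was present in 15 of 32851 windows of all genes (0.0457%) and in 1 of 46 windows of members, both strands searched. In Hk2 the ACGTG matches begin 226 and 52 bases upstream of the start, and in Pkm 75 bases upstream and 8 bases downstream. ACGTG on either strand was present in 19.6% of all windows and in 41.3% of the members' windows, belonging to 16 of 29 members. Among these were genes with no called difference, such as Ldha, Pgk1 and Slc2a1, and a match in the letters is a description and not a bound site.

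Lactate dehydrogenase interconverts pyruvate and lactate. Ldha had 795, 801 and 681 CPM in livers labelled knockout, against 1240.2, 1011 and 948 CPM in livers labelled wild type. It was the member whose libraries labelled knockout all lay below those labelled wild type, and the difference was not called (-0.49 ± 0.19, adjusted p = 0.207). Ldhb had 2.66, 2.89 and 4.59 CPM in livers labelled knockout, against 1.77, 1.41 and 1.64 CPM in livers labelled wild type, without overlap (1.07 ± 0.31, adjusted p = 0.108). Ldhb remained a trace form, at 0.631% ± 0.259 of lactate dehydrogenase reads per kilobase in livers labelled knockout and 0.211% ± 0.0254 in livers labelled wild type.

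Over the 5 families, 9 members were isozymes of other cells, of which 2 were called higher, 0 lower and 7 not called. Of all tested genes 0.932% were called higher and 0.506% lower. The median log2 fold change of the 9 was 1.07, and 8 of 9 had a positive value, beside 8446 of 17606 tested genes. Those 8 include Aldoc at 0.01 ± 0.41, which has no clear direction. In 7 of 9 every library labelled knockout was above every one labelled wild type, as in 13.7% of all tested genes. The liver-type members Pfkl, Pklr and Ldha had 0 of 3 called by edgeR and a median of -0.33. Of these 3, 1 had an unadjusted p under 0.05, where 19.7% of all tested genes did. DESeq2, which called 10.6% of all tested genes, called 7 of the 9 higher (Hk1, Hk2, Hk3, Pfkp, Aldoa, Pkm and Ldhb) and 1 of the 3 lower (Ldha), and limma voom, which called 0.392%, called Pkm alone among all 12. In total, DESeq2 called 9 of the 30 members, 8 higher with Gys2 among them, and 1 lower.

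Whether isozymes moved apart was tested on the log2 ratio of their counts within each library, which needs no library scaling. With 3 libraries against 3 an exact permutation test cannot give a two-sided p under 0.1, so no ratio could pass 0.05. Over 9 ratios the smallest p was 0.1, and 0.3 after adjustment. Of 4 ratios of isozymes of other cells to the liver type in 3 families, 3 were higher in livers labelled knockout, 2 of them without overlap. Pfkp/Pfkl had log2 ratios of -2.52, -3.23 and -1.93 in livers labelled knockout, against -3.58, -4.47 and -3.98 in livers labelled wild type, a difference of 1.45 (exact permutation p = 0.1, adjusted p = 0.3). Ldhb/Ldha had -8.22, -8.11 and -7.21 in livers labelled knockout, against -9.44, -9.48 and -9.17 in livers labelled wild type, a difference of 1.52 with the same p. Pkm/Pklr had -1.71, -2.32 and -1.19 in livers labelled knockout, against -2.14, -3.94 and -4.29 in livers labelled wild type. Its difference of 1.72 came with overlapping groups, as labelled wild-type replicate 1 lay between the livers labelled knockout (exact permutation p = 0.2, adjusted p = 0.3). Pfkm/Pfkl ran the other way by -0.48 (exact permutation p = 0.2). Of 5 further ratios, Pygb/Pygl, brain over liver glycogen phosphorylase, was 1.79 higher without overlap (exact permutation p = 0.1), and 1.14 higher without labelled knockout replicate 3. Slc2a1/Slc2a2, Gys1/Gys2, Pck2/Pck1 and Pfkfb3/Pfkfb1 overlapped.

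**Figure D3:**
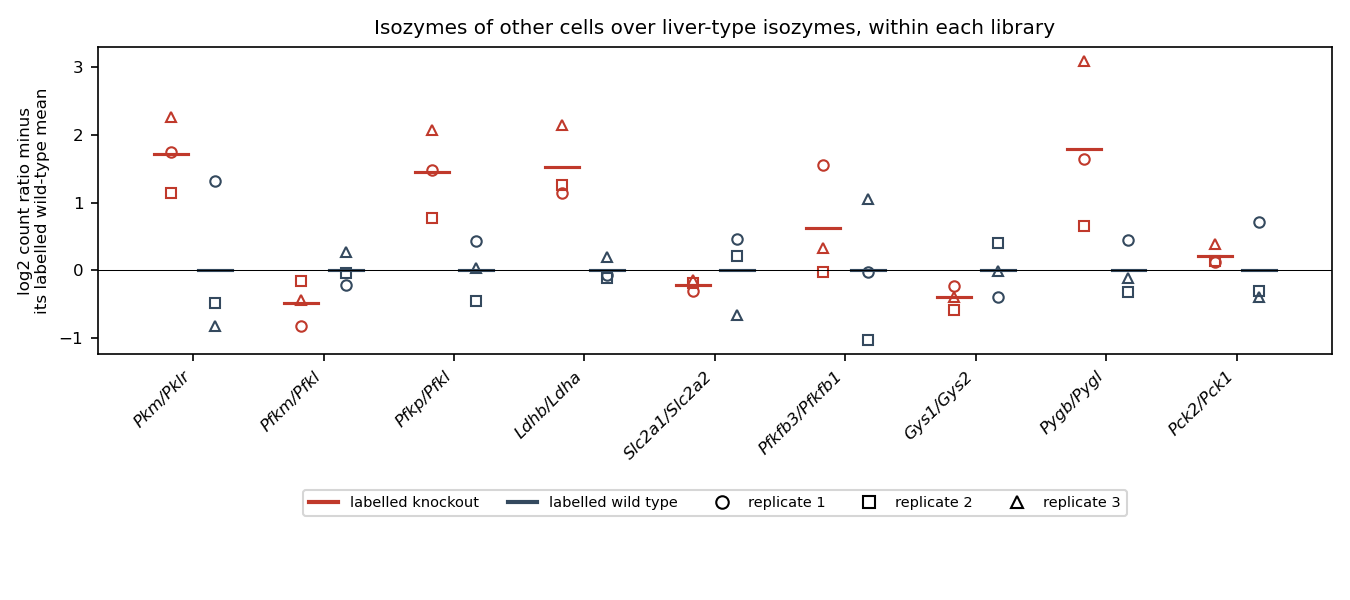
Log2 ratio of the counts of 2 isozymes within a library, less the mean of that ratio in livers labelled wild type, for 9 ratios, with labelled knockout in red to the left and labelled wild type in dark blue to the right; bars are means (n = 3). Pfkp/Pfkl, Ldhb/Ldha and Pygb/Pygl have all red points above the dark blue ones, and Pkm/Pklr has 1 labelled wild-type library among the red.

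Summed markers of recruited macrophages, stellate cells and proliferating cells also differed between the groups without overlap, while those of several other cell types overlapped. The summed level of 13 markers of recruited macrophages and monocytes was 857, 608 and 1600 CPM in livers labelled knockout, against 385, 229.6 and 211 CPM in livers labelled wild type. All 13 were higher in livers labelled knockout, 12 of them without overlap, Cd68 was called, and none was at 0. Of all tested genes, 13.7% lay higher and 12% lower without overlap, 19.7% had an unadjusted p under 0.05, and 1.44% were called. Labelled knockout replicate 2 had the lowest macrophage sum of its group and the lowest level of 6 of the 9 isozymes of other cells, all but Hk3, lowest in replicate 3, and Pfkm and Ldhb, lowest in replicate 1. Labelled knockout replicate 3 had the highest macrophage sum and the highest level of 6 of the 9, all but Hk1, Hk3 and Pfkm. Labelled wild-type replicate 1 had the highest macrophage sum of its group and the highest level of 6 of the 9, all but Hk2, highest in replicate 2, and Pfkm and Aldoc, highest in replicate 3. Bile duct and proliferating cell sums had the same extremes, though without Spp1 the highest labelled wild-type bile duct sum was in replicate 2. The stellate cell sum had other highest libraries. On the first principal component labelled knockout replicates 2 and 3 were the ends of their group, and labelled wild-type replicate 1 lay nearest that group. This order was thus not particular to macrophages, and its share over all genes was not counted. Stellate cell and fibroblast markers summed to 631 to 1116 CPM in livers labelled knockout and 288 to 317 CPM in livers labelled wild type, with 4 of 13 called higher. Bile duct markers summed to 114 to 713 CPM in livers labelled knockout and 106 to 132 CPM in livers labelled wild type, overlapping groups, with 2 of 10 tested markers called higher and labelled knockout replicate 3 at the top. Spp1, which is also on the macrophage list, made up 75.7% of the bile duct sum in livers labelled knockout and 73.8% in livers labelled wild type. Without it the bile duct sum was 39.3 to 132.5 CPM in livers labelled knockout and 28.9 to 34.2 CPM in livers labelled wild type, and the macrophage sum was 533 to 1020.0 CPM in livers labelled knockout and 136 to 281 CPM in livers labelled wild type, both without overlap. Markers of proliferating cells summed to 10.8 to 20.8 CPM in livers labelled knockout and 3.60 to 5.01 CPM in livers labelled wild type. The hepatocyte sum was 71630.0 to 88830.0 CPM in livers labelled knockout and 87840.0 to 90550.0 CPM in livers labelled wild type. Of its 14 markers 13 had a negative log2 fold change, 6 of them lay lower without overlap and 2 were called lower, while albumin (Alb) lay higher without overlap and made up 52.4% of the sum in livers labelled knockout and 35.3% in livers labelled wild type. The other 13 markers summed to 32220.0 to 43430.0 CPM in livers labelled knockout and 55570.0 to 59190.0 CPM in livers labelled wild type, without overlap. Resident Kupffer cell markers (642 to 829 CPM in livers labelled knockout, against 528 to 934 CPM in livers labelled wild type) and endothelial markers (119 to 209 CPM in livers labelled knockout, against 122 to 171 CPM in livers labelled wild type) overlapped, with 0 called by edgeR and 4 of each list at an unadjusted p under 0.05. Among 11 Kupffer markers, 3 lay higher without overlap (Adgre1, C1qa and C1qc) and 2 lower (Clec4f and Marco), so their sum mixes both directions. Among 10 endothelial markers, 4 lay higher without overlap and 0 lower. Skeletal muscle markers summed to at most 1.51 CPM in livers labelled knockout and 2.23 CPM in livers labelled wild type, with 4 of 10 (Myh1, Myl1, Tnnc2 and Pvalb) at a mean of no more than 3 counts a library. Lists for neutrophils, lymphocytes, red cells, adipocytes and pancreas had 0 markers called by edgeR, with 0, 3, 0, 1 and 0 at an unadjusted p under 0.05. The part of these cells in the isozyme differences was not tested, and in a whole-tissue sample more cells of a type and more RNA per cell cannot be told apart.

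**Figure D4:**
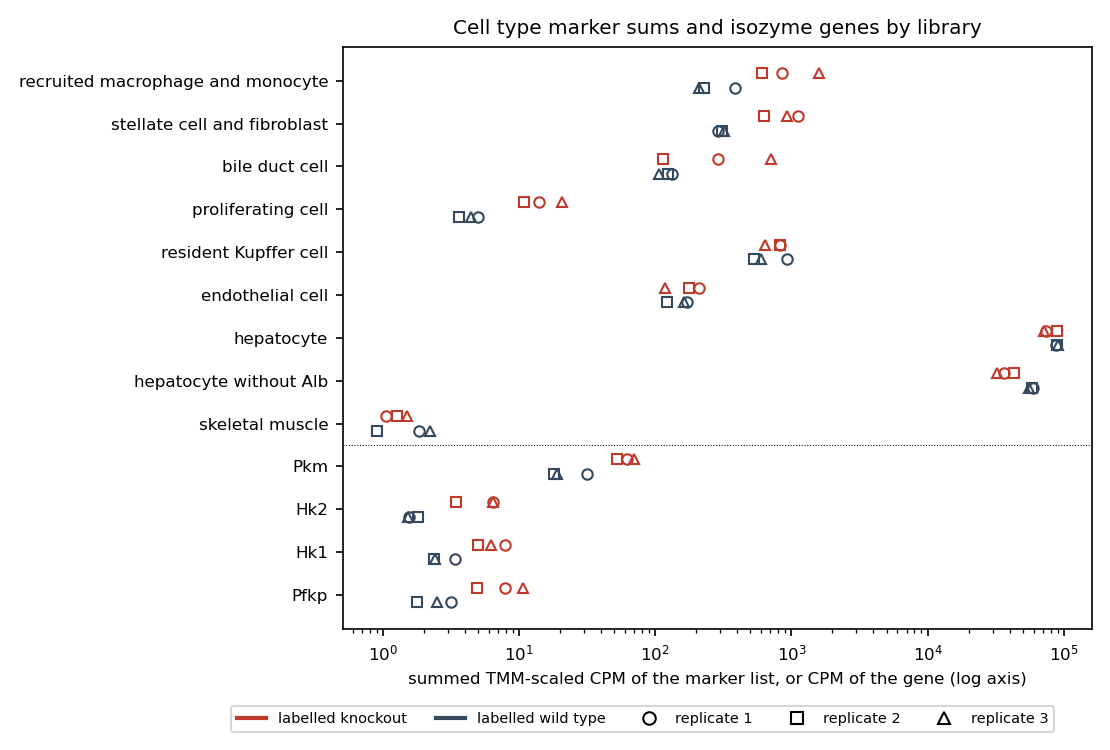
Summed TMM-scaled CPM of fixed marker lists for 8 cell types, hepatocytes also without Alb, (above the dotted line) and CPM of Pkm, Hk2, Hk1 and Pfkp (below it) in each library on a log axis, labelled knockout in red above labelled wild type in dark blue, with symbols for replicate numbers. Macrophage, stellate and proliferation sums and the 4 isozyme genes separate the groups, the hepatocyte sums overlap with Alb and lie lower in livers labelled knockout without it, and muscle markers stay near 1 CPM.

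The isomerase and the lower steps, used in both directions of the pathway, had no called member among 7, 0 at an unadjusted p under 0.05 and 0 by DESeq2. Of all tested genes 1.44% were called, 19.7% had an unadjusted p under 0.05 and DESeq2 called 10.6%. With 7 genes, 0 cannot be told apart from these shares. The log2 fold changes of the 7 ran from -0.15 to 0.37. Hepatocytes and other cells share these enzymes, apart from the muscle form Eno3. Eno1, the widely expressed enolase, had 510.1, 594 and 640 CPM in livers labelled knockout, against 385, 509 and 457 CPM in livers labelled wild type. Its groups were barely apart (0.37 ± 0.18, adjusted p = 0.319). Eno3, the muscle enolase, was low at 5.27 ± 0.681 CPM in livers labelled knockout and 4.99 ± 1.00 CPM in livers labelled wild type (0.08 ± 0.23). Pgam1, phosphoglycerate mutase, had 148, 157 and 146 CPM in livers labelled knockout and 152, 158 and 142 CPM in livers labelled wild type, a 95% interval of -0.30 to 0.29 on the log2 scale. Pgk1, phosphoglycerate kinase, was at 267 ± 30.0 and 262 ± 24.2 CPM in livers labelled knockout and labelled wild type (95% interval -0.34 to 0.40). Tpi1, triose phosphate isomerase, and Gpi1, glucose phosphate isomerase, had log2 fold changes of -0.15 ± 0.18 and -0.06 ± 0.19, and 0.18 and 0.27 with total-count scaling.

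Gapdh, glyceraldehyde 3-phosphate dehydrogenase, shared its reads with near-identical copies. Of all reads on Gapdh and 6 retrocopies or pseudogenes in the table, 68.4% were on the copies, 64.3% to 71.2% in livers labelled knockout and 67.7% to 76.5% in livers labelled wild type. Gapdh itself had 34.6, 30.2 and 47.0 CPM in livers labelled knockout and 28.7, 48.3 and 26.0 CPM in livers labelled wild type (0.12 ± 0.26, adjusted p = 0.864). Summed with the copies it had 111 ± 18.0 CPM in livers labelled knockout and 119 ± 27.6 CPM in livers labelled wild type (-0.10 ± 0.20, adjusted p = 0.852). Copies took 3.51% of the reads for Eno1, 4.86% for Pgam1, 2.46% for Pgk1, 1.37% for Ldhb, 0.269% for Tpi1 and 0.113% for Ldha, so that among these 7 genes the level of Gapdh is the most uncertain.

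No gluconeogenic enzyme was called, and Pck1 and Fbp1 were among the 3 most abundant members. Per kilobase, Pck1, the cytosolic phosphoenolpyruvate carboxykinase, and Fbp1, fructose bisphosphatase, had 579.5 ± 167 and 512 ± 101 CPM per kilobase in livers labelled knockout and 529 ± 214 and 574 ± 140.0 in livers labelled wild type. Ldha had 418 ± 37.2 and 588 ± 84.7 CPM per kilobase in livers labelled knockout and labelled wild type, and in each group the mean ± SD ranges of these 3 genes overlapped. Hk2 was the lowest member in each group, at 0.987 ± 0.311 CPM per kilobase in livers labelled knockout and 0.295 ± 0.0276 in livers labelled wild type. In CPM, Pck1 had 1378, 1202 and 2046 in livers labelled knockout and 764, 1608 and 1849 in livers labelled wild type (0.13 ± 0.36, adjusted p = 0.891). Fbp1 had 627, 724 and 921 CPM in livers labelled knockout and 625, 887 and 1034 CPM in livers labelled wild type (-0.16 ± 0.25, adjusted p = 0.782; 0.18 with total-count scaling). In both genes labelled wild-type replicate 1 was lowest in its group. Pcx, pyruvate carboxylase, had 624, 649.6 and 456 CPM in livers labelled knockout and 647, 620.2 and 625 CPM in livers labelled wild type, with labelled knockout replicate 3 below the other 5 (-0.13 ± 0.19, adjusted p = 0.778; 0.18 with total-count scaling). Pck2, the mitochondrial form, had 8.93, 7.83 and 15.9 CPM in livers labelled knockout and 7.42, 7.70 and 8.40 CPM in livers labelled wild type, so that labelled knockout replicate 3 set its value (0.47 ± 0.27, adjusted p = 0.384). None of these 4 had an unadjusted p under 0.05, and DESeq2 called 0. Of all tested genes edgeR called 1.44%, 19.7% had an unadjusted p under 0.05 and DESeq2 called 10.6%. With 4 genes, 0 cannot be told apart from these shares.

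Glucose and fructose entry and the glycogen enzymes held no called member, where 1.44% of all tested genes were called. Slc2a2, the hepatocyte glucose transporter GLUT2, had 323, 343 and 330.2 CPM in livers labelled knockout and 208, 272 and 412 CPM in livers labelled wild type, within the wild-type range (0.16 ± 0.25, adjusted p = 0.787). Slc2a1, the GLUT1 transporter of most other cells, had 12.2, 14.0 and 14.0 CPM in livers labelled knockout and 13.4, 14.6 and 12.2 CPM in livers labelled wild type. Its log2 fold change was 0.00 ± 0.14, with a 95% interval of -0.32 to 0.32. Gys2, liver glycogen synthase, had 221, 301 and 270.0 CPM in livers labelled knockout, against 182, 167 and 193 CPM in livers labelled wild type, without overlap and not called (0.55 ± 0.16, adjusted p = 0.12). Pygl, liver glycogen phosphorylase, had 252, 306 and 274 CPM in livers labelled knockout and 247, 405 and 413 CPM in livers labelled wild type (-0.36 ± 0.22, adjusted p = 0.434). Khk, ketohexokinase, which starts fructose breakdown, had 251, 415 and 308 CPM in livers labelled knockout and 330.3, 552 and 535 CPM in livers labelled wild type (-0.54 ± 0.26, adjusted p = 0.306).

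Of 106 further tested genes of these pathways, from 7 lists, 2 were called higher and 1 lower (2.83%, beside 1.44% of all tested genes), with a median log2 fold change of 0.04. Among 22 regulators, 2 were called higher and 0 lower. Txnip, the glucose-induced inhibitor of glucose uptake, had 207, 236 and 198 CPM in livers labelled knockout, against 84.7, 33.9 and 37.5 CPM in livers labelled wild type (2.04 ± 0.35, adjusted p = 0.0464). Igfbp1, a binding protein repressed by insulin, had 69.6, 38.6 and 65.2 CPM in livers labelled knockout, against 19.5, 16.6 and 12.5 CPM in livers labelled wild type (1.83 ± 0.25, adjusted p = 0.0416).

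Among 24 other glycogen genes 0 were called higher and 1 lower. Ppp1r3c, the glycogen-targeting subunit of protein phosphatase 1 known as PTG, had 10.1, 12.6 and 10.1 CPM in livers labelled knockout, against 20.1, 36.1 and 29.4 CPM in livers labelled wild type (-1.38 ± 0.22, adjusted p = 0.0447). At an unadjusted p under 0.05 there were 7 of the 24, where 19.7% of all tested genes passed. Without overlap 5 lay higher and 3 lower, where 25.7% of all tested genes did either. DESeq2 called 3 higher and 1 lower, and 10.6% of all tested genes. Brain phosphorylase Pygb, given because of its ratio above, had 8.87, 5.43 and 26.5 CPM in livers labelled knockout, against 3.796, 3.64 and 4.30 CPM in livers labelled wild type, with labelled knockout replicate 3 far above the rest (1.80 ± 0.56, adjusted p = 0.146).

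The other 5 lists held 0 genes called by edgeR or limma voom. Beside the counts below, 19.7% of all tested genes had an unadjusted p under 0.05 and DESeq2 called 10.6%. In 12 other glycolysis genes, 4 had an unadjusted p under 0.05 and DESeq2 called 2 higher and 2 lower. Eno2, the neuronal enolase, was at 0.856 ± 0.433 CPM in livers labelled knockout and 0.130 ± 0.0884 CPM in livers labelled wild type (adjusted p = 0.0858), and Gapdhs, the sperm form of Gapdh, at 0.568 ± 0.112 CPM in livers labelled knockout and 1.45 ± 0.164 CPM in livers labelled wild type (adjusted p = 0.0932). In 11 other gluconeogenesis genes 0 were under 0.05 unadjusted and DESeq2 called 0, with G6pc3, the ubiquitous glucose 6-phosphatase, at 0.33 ± 0.17 and Gpd1, glycerol phosphate dehydrogenase, at -0.35 ± 0.20 on the log2 scale. In 8 pentose phosphate genes 2 were under 0.05 unadjusted and DESeq2 called those 2 higher. G6pdx, the rate-limiting dehydrogenase, had 8.41, 9.15 and 9.42 CPM in livers labelled knockout, against 5.59, 5.26 and 4.13 CPM in livers labelled wild type (0.85 ± 0.19, adjusted p = 0.0606), and Rpia, ribose phosphate isomerase, stood at 1.14 ± 0.29 on the log2 scale (adjusted p = 0.0814). In 19 genes of pyruvate and lactate handling, 5 were under 0.05 unadjusted and DESeq2 called 1 higher and 1 lower. Ldhd, the D-lactate dehydrogenase, had 241, 285 and 143 CPM in livers labelled knockout, against 420.1, 471 and 446 CPM in livers labelled wild type (-0.999 ± 0.25, adjusted p = 0.0788), and the monocarboxylate transporter Slc16a7 stood at 1.11 ± 0.37 on the log2 scale (adjusted p = 0.156). In 10 genes of fructose, galactose and sorbitol, 2 were under 0.05 unadjusted and DESeq2 called 1 lower, with the hexose transporter Slc2a8 at -0.48 ± 0.12 (adjusted p = 0.0771) and Galt, galactose 1-phosphate uridylyltransferase, at -0.47 ± 0.14 (adjusted p = 0.123).

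The calls of Pkm and Hk2 stood close to the threshold. With 1 library left out, the log2 fold change of Pkm stayed between 1.28 and 1.73 and that of Hk2 between 1.60 and 2.01. Without labelled knockout replicate 1 or 3, or labelled wild-type replicate 2 or 3, 0 of 30 members were called by edgeR, with 8, 8, 8 and 10 members at an unadjusted p under 0.05, while the whole table held 0.0607%, 0.184%, 0% and 0.0217% called. Without labelled wild-type replicate 1 Pkm alone was called (2.07% of all genes), and without labelled knockout replicate 2 Hk1, Hk2, Pfkp and Pkm were called higher (4.96% of all genes). Under total-count scaling the median was 0.48 for the members and 0.31 for all tested genes, which left the members 0.17 above all genes, beside 0.14 with TMM. With TMM that difference was 0.04 without labelled knockout replicate 3 and 0.0061 without labelled wild-type replicate 1. Scaling by total counts called 8 members, all higher, with Hk1, Hk3, Pfkp, Aldoa, Pfkl and Gys2 added to Pkm and Hk2, out of 5.73% of all genes, and 93.4% of all its calls were higher, beside 64.8% with TMM. Without the filter Hk1 and Pfkp joined Hk2 and Pkm (1.7% of all genes), and without the 20 most abundant genes in the totals 7 members were called (4.98%). DESeq2 size factors (1.29% of all genes) and a minimum of 10 counts in 3 libraries (1.31%) called Hk2 and Pkm, and a fit with the replicate number as a block called 0 members (0.0227% of all genes). Txnip, Igfbp1 and Ppp1r3c were each called without labelled knockout replicate 2 and without labelled wild-type replicate 1, and not with any of the other 4 libraries left out (adjusted p = 0.0614 to 0.180).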

How the data were processed

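Gene counts were analysed for 3 liver libraries labelled ATP7B knockout and 3 labelled wild type. Per the labels' protocols, RNA was taken with Trizol, polyadenylated RNA was selected and libraries kept strand through dUTP. The authors deposited raw whole-number counts per gene, 1 column per library, and per the submitters' processing notes used the build GRCm39 and edgeR. Which aligner, counter and annotation were used, and whether strand was, is not given in the sources used here, and overlapping, antisense or near-identical genes may share reads.

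Genes were filtered with filterByExpr, which left 17606 of 30029, scaled by TMM and tested by quasi-likelihood, robustly, in edgeR 4.0.16 (alternatives in DESeq2 1.42.0 and limma 3.58.1, all in R 4.3.3), fitted on the whole table with Benjamini-Hochberg adjustment. The fit was checked on simulated data. SEs come from the F statistic, and intervals (95%) cover the spread between libraries as modelled. A level of 3 counts, taken as the least detectable, was 0.0339 to 0.0578 CPM, covering counting error only, since amplified reads are not independent molecules. Ratios used counts plus 0.5 and an exact permutation test, two-sided. Lengths were those of the longest coding transcript in GENCODE vM21, matched by gene identifier. Copies of members were picked by the names and descriptions in the table.

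Members, isozyme classes, lists, markers and tests were chosen with earlier results of these data known. All members were reported; in the other lists, up to 4 called genes were named, or the 2 with the smallest p where none was called, with Pygb added for its ratio. No pair of libraries within a group was a duplicate (lowest chi-square 63 per gene). Alternatives were other scalings, filters and tests, a 2-fold threshold, a block for replicate number, leaving out each library, other prior counts, copies summed, merged exons and marker sums without Alb or Spp1, the last 3 chosen after seeing the data. Some genes of these pathways are not reported here.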

Additional observations from a re-analysis of the deposited data

How the results depend on the processing

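With DESeq2's test, limma voom, total counts, the same totals less the 20 most abundant genes, and no filter, 1867, 69, 1008, 876 and 473 genes were called in all, against 253, and 9, 1, 8, 7 and 4 members, against 2. In the other lists the first 4 of these gave 18, 1, 11 and 10 calls, against 3. Leaving out 1 library at a time gave 0 to 912 genes, 0 to 4 members and 0 to 7 genes of the other lists. Deviations of same-numbered libraries had correlations of -0.05 to -0.02, and those of differently numbered libraries ran from -0.01 to 0.05. The labels give no pairing, and with 3 libraries a group these values cannot exclude one. With the replicate block edgeR called 4 genes, 0 members and 0 of the other lists (2926 genes and 9 members at an unadjusted p under 0.05). DESeq2 size factors, a minimum of 10 counts in 3 libraries and a 2-fold threshold left these counts within 1.5 times. All 9 isozyme ratios moved by less than the spread between libraries with prior counts of 0 and 2. They also did so with each library left out, but that comparison could not fail. Leaving out 1 of 3 libraries cannot shift a difference of means by the pooled SD, which was the spread used. The non-overlapping ratios stayed between 1.13 and 1.78 for Pfkp/Pfkl, 1.20 and 1.70 for Ldhb/Ldha and 1.14 and 2.37 for Pygb/Pygl. The block could not move a ratio, because pairing libraries in groups of equal size leaves the difference of means as it was.

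Of 450 alternative values for members, 36 in 14 members changed sign, none past the threshold in either direction, and the cause was not tested beyond the shift of all genes under total counts. With total counts and then without the 20 most abundant genes the log2 fold changes were 0.18 and 0.15 for Fbp1, 0.27 and 0.24 for Gpi1, 0.18 and 0.16 for Pcx, 0.32 and 0.29 for Pgam1 and 0.18 and 0.15 for Tpi1, and Pfkm was at 0.0227 with total counts. Pgam1 was at 0.0064 with DESeq2's test and size factors, 0.0134 without a filter and 0.0032 with copies, where Gapdh was at -0.0954. With 1 library left out at a time, log2 fold changes that crossed 0 ran from -0.33 to 0.3049 for Aldoc, -0.0731 to 0.2127 for Eno3, -0.3445 to 8e-04 for Fbp1, -0.0832 to 0.4415 for Gapdh, -0.2272 to 0.0742 for Gpi1, -0.17 to 0.3764 for Pck1, -0.192 to 0.0157 for Pcx, -0.0474 to 0.0293 for Pgam1, -0.0435 to 0.1101 for Pgk1, -0.6354 to 0.0061 for Pklr, -0.0639 to 0.0665 for Slc2a1, -0.0434 to 0.4677 for Slc2a2, and -0.14 to 0.3542 for Atp7b.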
